A study of Mus musculus with 8 samples.

Results

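Cells take up amino acids through carrier proteins of the solute carrier (Slc) superfamily, and this account covers 5 of its families in mouse neural stem cells kept at low or atmospheric oxygen. The genes were all those whose symbol begins with Slc3a, Slc7a, Slc36a, Slc38a or Slc43a, chosen by name alone. RefSeq holds 38 such genes, of which 36 were on the array through 47 probes, among 37074 genes and transcripts in all. Signal was high enough to test 29 of the 36, among 26874 genes and transcripts tested. Slc7a6os fits the pattern by name only: its product takes part in the nuclear import of RNA polymerase II and is not a carrier. The 38 also hold Slc36a1os and Slc36a3os, which are not protein-coding and were not on the array.

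The cells were isolated from OF-1 mouse embryos at E13.5 and grown in serum-free medium under 5% CO2 at 37 °C. The normoxia group was kept at 21% oxygen and the hypoxia group at 5% oxygen from isolation onwards, for at least 10 days and 2 to 3 passages. No cells carried a genetic change or received a drug, and all material was cultured. Each group had 4 arrays, 1 from each of 4 separate experiments whose donors differed. Arrays of the 2 groups with the same number were taken as 1 experiment, called a culture here.

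The Slc3 proteins are heavy chains that bring certain Slc7 light chains to the cell surface, where the light chain does the transport, usually exchanging an amino acid inside for another outside. The remaining Slc7 proteins are cationic amino acid transporters, which carry arginine and lysine without a heavy chain. Slc38 proteins move glutamine, alanine and other small neutral amino acids with sodium. Some Slc36 proteins move small amino acids with protons, and Slc43 holds carriers of large neutral amino acids. Several of these genes, Slc7a11, Slc7a5, Slc7a1 and Slc3a2 among them, are known targets of the transcription factor ATF4, which cells activate when amino acids run short.

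A level below is the log2 of the processed signal over the array's 75th percentile, so a level of 0 is that percentile and a step of 1 is a doubling. Levels of different genes come from different probes and were not set against each other. A change is the 5% oxygen level minus the 21% oxygen level, from limma's fit with the culture as a block (the paired fit). A gene is said to have risen or fallen only where the p-value adjusted over all genes tested was under 0.05. The number of 8 arrays limits the precision of every value.

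Over the arrays, 64.4% to 73.9% of non-control spots exceeded background clearly, and the 75th percentile lay between 1909 and 7352 intensity units. Of 12 known targets of the hypoxia-inducible factor HIF, 11 rose, with a median change over the 12 of 2.34. The exception was the lactate dehydrogenase gene Ldha at 0.20 (adjusted p = 0.592). Over the alternative ways of processing its change ran from -0.15 to 0.84, with -0.04 under quantile normalization, and passed in none. In a fit that ignores the culture, 2 of the 12 targets rose. Slc2a1 lost its paired call without culture 1 or 3 (limma adjusted p = 0.0542 and 0.0507), and Vegfa without culture 3 (0.0517). All 10 neural stem cell markers, Nes and Sox2 among them, were well above background on all 8 arrays, and none passed the threshold (1 higher and 1 lower at an unadjusted limma p under 0.05).

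Of the 29 transporter family genes tested, 3 rose at 5% oxygen and 0 fell. Among all genes tested, 5.51% passed, 4.22% by rising and 1.29% by falling. The risen genes were Slc38a4, Slc7a10 and Slc7a4. At an unadjusted limma p under 0.05, 3 of the 29 were lower (Slc7a1, Slc7a11 and Slc38a7) and 8 were higher (6 without Slc38a5 and Slc7a2). Over all 26874 genes, 2072 were lower and 3149 higher at that limit. Slc38a5 and Slc7a2 passed the filter on dim probes only through their hypoxia arrays, so they could hardly appear here other than as higher. In the unpaired fit, which ignores the culture, 1 of the 29 rose (Slc38a4) and 0 fell, with 0 lower at an unadjusted p under 0.05. Over all genes 0.0893% rose there, and 648 of 26874 were lower at that unadjusted limit.

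The 29 changes lay between -0.81 and 2.11 with a median of -0.01 (-0.02 over the 27 without Slc38a5 and Slc7a2), against a median of 0.02 over all genes. Numbers above and below 0 were nearly even, at 14 and 15, against 14501 and 12373 over all genes. In all 4 cultures 6 of the 29 were higher at 5% oxygen (4 of those 27) and 5 were lower; over all genes measured on every array these shares were 15.3% and 13.0%. The groups did not overlap, with the hypoxia arrays above, for Slc38a4 and Slc7a10, and for Slc38a5, which the filter favours in this direction; this held for 833 of 26830 genes in all (3.10%). Slc38a4 and Slc7a10 were at least 2-fold higher in every culture, which 0.820% of all genes were. By family the median change was 0.09 for 2 Slc3 genes, -0.01 for 11 Slc7 genes, 0.14 for 3 Slc36 genes, 0.05 for 10 Slc38 genes and -0.08 for 3 Slc43 genes.

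**Figure D1:**
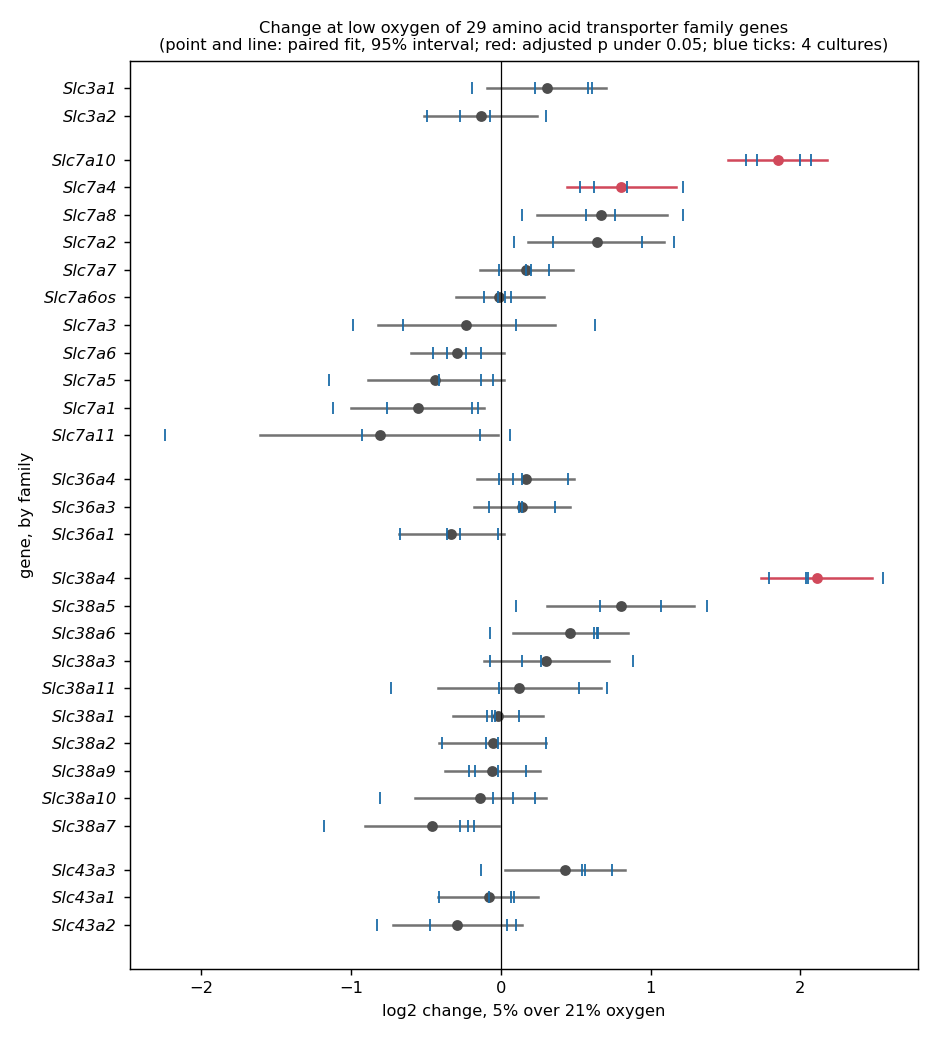
Change at 5% over 21% oxygen (log2, horizontal axis) for each of the 29 tested genes, grouped by family. The point and line give the paired fit and its 95% interval, and blue ticks give the 4 cultures. Slc38a4 at 2.11, Slc7a10 at 1.85 and Slc7a4 at 0.80 are drawn in red (adjusted p under 0.05), and Slc7a11 has the widest spread of ticks, from -2.24 to 0.06.

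Slc38a4 (SNAT4) is a sodium-coupled carrier of small neutral amino acids, best known from liver and placenta, and its gene is imprinted in the mouse. Its levels at 21% oxygen were -4.65, -3.93, -4.67 and -4.72 in cultures 1 to 4. At 5% oxygen they were -2.59, -1.88, -2.12 and -2.94. Every hypoxia array lay above every normoxia array, and the change was between 1.79 and 2.55 in each culture. The gene rose 4.32-fold (95% interval 3.34 to 5.58; log2 change 2.11, SE 0.16, n = 4 pairs; limma adjusted p = 0.00115), and in the unpaired fit the adjusted p was 0.037. The paired call stood without any 1 culture, with an adjusted p of at most 0.0246; the unpaired call was lost without any 1 array except hypoxia 4 or normoxia 2 (up to 0.147). Cell number and RNA per cell cannot be told apart in these bulk samples: a rise in bulk RNA can come from more cells of a type or from more RNA per cell.

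Slc38a4 lies on chromosome 15 next to Slc38a1 and Slc38a2, with 0 protein-coding genes between neighbours, in RefSeq's annotation of assembly GRCm38.p6. Slc38a1 (SNAT1) and Slc38a2 (SNAT2) are the other carriers of the same transport activity, known as system A. Slc38a1 stayed within a narrow band, at 4.65, 4.49, 4.46 and 4.51 with 21% oxygen and 4.61, 4.62, 4.41 and 4.42 with 5%. Its change was -0.02, with a 95% interval from -0.32 to 0.28 (adjusted p = 0.967), and its sign turned under another background correction. These values are from the brightest probe. Dimmer probes of Slc38a1 gave changes of -0.26, with levels from -2.03 to -0.85, and -0.1. Slc38a2 had a change of -0.05 with an interval from -0.41 to 0.30 (adjusted p = 0.896). The upper ends of both intervals lie below the lowest within-culture change of Slc38a4, 1.79; the difference between the genes was not tested.

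RefSeq gives Slc38a4 3 separate starts. The 250 bases before 2 of them are shown because the neighbouring genes moved so differently; both are on the minus strand of GRCm38.p6, written 5′ to 3′ along the gene. Capitals mark ACGTG or GCGTG, the core bound by HIF, searched on both strands. The first window is chr15:97020360-97020609 and the second chr15:97055957-97056206.
Slc38a4, start with a match: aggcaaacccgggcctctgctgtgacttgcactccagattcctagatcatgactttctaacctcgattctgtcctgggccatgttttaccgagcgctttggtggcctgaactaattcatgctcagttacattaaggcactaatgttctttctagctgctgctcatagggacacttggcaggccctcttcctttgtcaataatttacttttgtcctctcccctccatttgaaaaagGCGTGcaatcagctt
Slc38a4, farthest upstream start: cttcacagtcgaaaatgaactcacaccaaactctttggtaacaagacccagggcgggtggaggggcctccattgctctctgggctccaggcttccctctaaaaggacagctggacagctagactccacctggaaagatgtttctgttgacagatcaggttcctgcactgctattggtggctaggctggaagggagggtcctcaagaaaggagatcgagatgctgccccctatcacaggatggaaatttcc
The first window holds 1 match, 11 to 15 bases before the start, and the second and the remaining window hold none. Such a match is common: 38.6% of 32851 RefSeq promoter windows of this length hold at least 1, as did 20 of 39 windows of the 28 family genes in that table, of which 22 were tested here. The 28 include Slc36a1os, Slc36a3os and Slc7a6os, which are not carriers and hold a match in their windows. The array does not tell which start was used. Of the neighbours, Slc38a2 has a window without a match and Slc38a1 had no window to search. Whether the match bears on the rise of Slc38a4 was not tested.

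Slc7a10 (Asc-1) is a light chain for small neutral amino acids that works with Slc3a2 and is known in brain as a carrier of glycine and D-serine. Its levels at 21% oxygen were -3.18, -2.20, -2.85 and -3.97 in cultures 1 to 4. At 5% oxygen they were -1.47, -0.56, -0.79 and -1.96. The groups did not overlap, and the cultures kept nearly the same distance, with changes of 1.71, 1.64, 2.07 and 2.00. Slc7a10 rose 3.61-fold (95% interval 2.87 to 4.54; log2 change 1.85, SE 0.14; limma adjusted p = 0.00115). Without any 1 culture the adjusted p was at most 0.0248. The unpaired fit gave 0.131, with culture means spread over 1.59. Its start on chromosome 7 lies 6 protein-coding genes from Slc7a9, whose probe was not well above background on any array.

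The window before the start of Slc7a10, chr7:35186135-35186384 on the plus strand of GRCm38.p6, is shown as the counterpart of the Slc38a4 windows for the other strongly risen gene.
Slc7a10: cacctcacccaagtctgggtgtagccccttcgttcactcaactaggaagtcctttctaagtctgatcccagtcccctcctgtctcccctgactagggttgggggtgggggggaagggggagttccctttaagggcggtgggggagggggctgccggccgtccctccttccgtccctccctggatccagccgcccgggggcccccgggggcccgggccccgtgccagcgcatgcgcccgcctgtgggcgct
It holds neither ACGTG nor GCGTG on either strand and so has no capitals.

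Slc7a4 is related in sequence to the cationic amino acid transporters, but transport by it has not been clearly shown. Its levels at 21% oxygen were -0.26, 0.94, 0.64 and -0.51, and at 5% oxygen 0.58, 2.16, 1.26 and 0.02. The groups overlapped because the cultures differed more from each other (a range of 1.80 between culture means) than the oxygen groups did. Within each culture the hypoxia array was higher, by 0.84, 1.22, 0.62 and 0.53. It rose 1.75-fold (95% interval 1.36 to 2.25, log2 change 0.80, SE 0.16, limma adjusted p = 0.0267). A second probe of Slc7a4 was not well above background on any array, at -9.35 to -7.81, so the rise rests on 1 probe. The call was lost without culture 1, 2 or 3 (adjusted p = 0.113, 0.0685 and 0.0989), with the culture as a random block (0.108), with no filter on dim probes (0.0999) and in the unpaired fit (0.791).

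**Figure D2:**
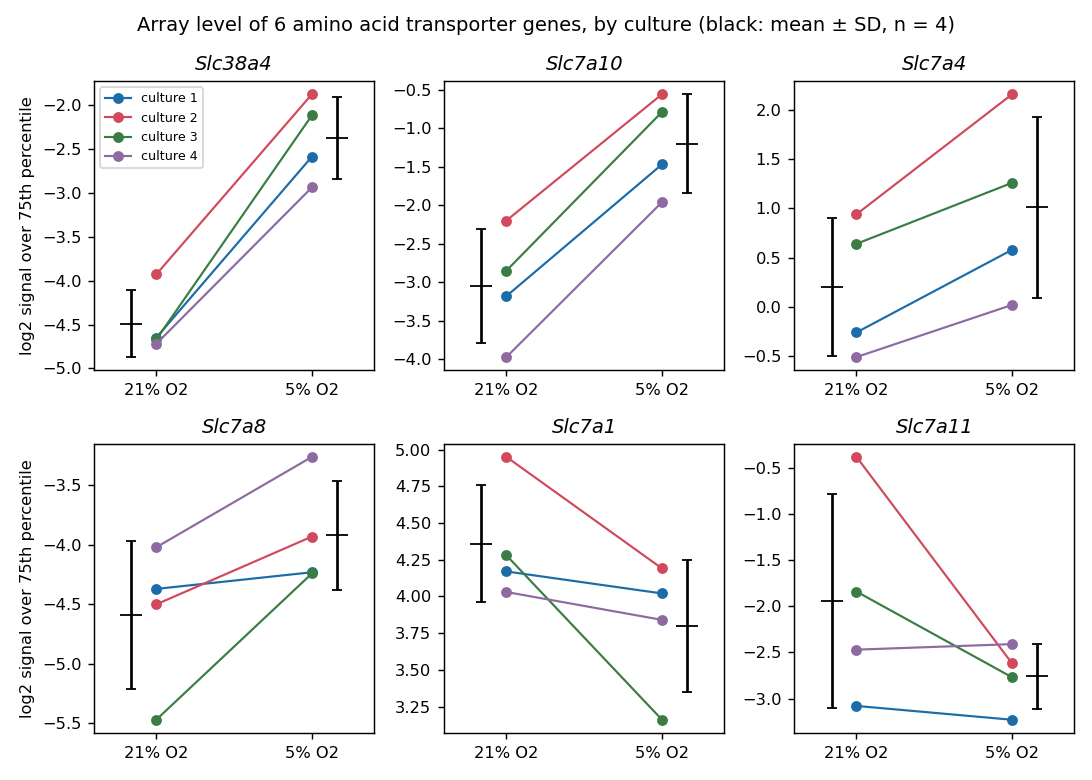
Level (log2 signal over the array's 75th percentile, vertical axis, own scale per gene) at 21% and 5% oxygen for 6 genes, with a line for each culture and black bars for mean ± SD (n = 4). Slc38a4 and Slc7a10 rise along near-parallel lines and Slc7a4 along shallower ones, while Slc7a11 drops steeply in culture 2, from -0.38 to -2.62, and is nearly level in cultures 1 and 4.

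The heavy chains did not pass the test. Slc3a2 (CD98 heavy chain), the partner of most Slc7 light chains, had levels of 4.61, 5.00, 4.87 and 4.15 at 21% oxygen and 4.91, 4.51, 4.60 and 4.08 at 5% oxygen. Culture 1 was higher at 5% oxygen by 0.30 and the others lower by 0.07 to 0.49, which gave a change of -0.13 (95% interval -0.51 to 0.24; adjusted p = 0.726). Slc3a1 (rBAT), the heavy chain of the kidney cystine exchanger, had a change of 0.31 (adjusted p = 0.379). Its light chain in kidney is Slc7a9, which was not tested.

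Of the other light chains, Slc7a8 (LAT2), an exchanger of neutral amino acids, was higher at 5% oxygen in every culture, by 0.14, 0.57, 1.22 and 0.76. Its levels were -4.37, -4.50, -5.47 and -4.02 at 21% oxygen and -4.23, -3.93, -4.24 and -3.26 at 5%, so the groups overlapped. The change of 0.67 (SE 0.19, 95% interval 0.24 to 1.11) did not pass the threshold (limma adjusted p = 0.0844); with normexp background correction it did, at 0.51 (adjusted p = 0.0495). Slc7a5 (LAT1), which brings in leucine and other large neutral amino acids, was lower in every culture. Its levels were 2.29, 3.41, 2.69 and 1.70 at 21% oxygen and 2.16, 2.26, 2.27 and 1.65 at 5%. The change was -0.44 (SE 0.20; adjusted p = 0.282) and came mainly from culture 2, at -1.15; a second probe gave -0.28.

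Slc7a6 and Slc7a7 (y+LAT2 and y+LAT1) exchange cationic for neutral amino acids. Slc7a6 was lower in every culture by 0.13 to 0.45, a change of -0.29 (adjusted p = 0.283), and Slc7a7 had a change of 0.17 (adjusted p = 0.55). Slc7a6os, the neighbour of Slc7a6 on chromosome 8, had a change of -0.01 with an interval from -0.30 to 0.29, and its sign turned under quantile normalization.

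Slc7a11 (xCT) exchanges cystine for glutamate and so supplies cysteine for glutathione. At 21% oxygen its levels were -3.08, -0.38, -1.84 and -2.47. At 5% oxygen they were -3.23, -2.62, -2.77 and -2.41. The hypoxia arrays lay within a range of less than 1 while the normoxia arrays spread far wider, with culture 2 on top. Changes within cultures were -0.14, -2.24, -0.93 and 0.06. The mean change of -0.81 had a standard error of 0.34 and a 95% interval from -1.61 to -0.02, and did not pass the threshold (limma adjusted p = 0.242).

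The window before the start of Slc7a11 is shown because it carries the motif of the amino acid response. It is chr3:50443614-50443863, minus strand of GRCm38.p6, with capitals for TGATGNAA on either strand, the core of the element bound by ATF4 and its partners.
Slc7a11: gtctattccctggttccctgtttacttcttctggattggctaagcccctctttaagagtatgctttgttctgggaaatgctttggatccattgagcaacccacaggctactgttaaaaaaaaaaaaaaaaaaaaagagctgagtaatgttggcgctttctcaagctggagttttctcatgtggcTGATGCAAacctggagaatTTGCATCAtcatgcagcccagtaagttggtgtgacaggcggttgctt
The matches lie 59 to 66 bases (forward) and 40 to 47 bases (reverse) before the start. Among all 32851 windows 3.45% hold a match. Of the 28 family genes with a window, Slc7a11 and Slc7a7 hold one. The windows of Slc7a1 and Slc3a2, also named above as ATF4 targets, hold none, and Slc7a5 and Slc7a3 had no window to search. Whether the matches bear on the levels of Slc7a11 was not tested.

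The cationic transporters moved in different directions. Slc7a1 (CAT1), the widespread arginine and lysine carrier, had levels of 4.17, 4.95, 4.28 and 4.03 at 21% oxygen and 4.02, 4.19, 3.16 and 3.84 at 5%. It was lower in every culture, by 0.15, 0.76, 1.12 and 0.19, with a change of -0.55 (SE 0.19) that did not pass the threshold (limma adjusted p = 0.156). Slc7a3 (CAT3), a carrier of the same kind found mainly in brain, differed most between cultures, with culture means spread over 2.82. Its levels were -0.47, 2.58, 0.33 and -1.05 at 21% oxygen and -0.37, 1.59, -0.32 and -0.43 at 5%. Culture 2 stood highest on both sides. The change was -0.23 (SE 0.26; adjusted p = 0.695), and without culture 2 it was 0.03. Slc7a2 (CAT2) was near background, well above it on 4 hypoxia and 2 normoxia arrays, and entered the test only through the hypoxia arrays. Its levels were -6.29, -7.23, -7.07 and -6.03 at 21% oxygen and -5.94, -6.29, -5.91 and -5.94 at 5%, a change of 0.64 (adjusted p = 0.117).

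The transporters Slc7a11, Slc7a1, Slc7a5, Slc7a3 and Slc3a2 shared an order over cultures: each was lower at 5% oxygen in cultures 2 and 3 and changed by less, or the other way, in cultures 1 and 4. This grouping was seen in the values and was not tested. In culture 2 their changes were -2.24, -0.76, -1.15, -0.99 and -0.49, and in culture 3 they were -0.93, -1.12, -0.41, -0.65 and -0.27. In culture 1 the same genes lay between -0.15 and 0.30 and in culture 4 between -0.19 and 0.63. The cultures also differed at 21% oxygen, where culture 2 had the highest level of each of the 5.

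Several genes of the amino acid response list had values of the same order; those named in this paragraph were chosen after their values were seen. Trib3, a pseudokinase induced by amino acid shortage, had levels of -0.46, 4.45, 2.55 and -0.93 at 21% oxygen and 0.72, 2.62, 1.07 and 0.34 at 5%. It was high at 21% oxygen in cultures 2 and 3, and its change was 1.19 in culture 1, -1.82 in culture 2, -1.48 in culture 3 and 1.27 in culture 4. Chac1, which breaks down glutathione, had changes of 0.18, -2.14, -3.24 and -0.27. The stress factor gene Atf3 had changes of 0.70, -2.00, -1.66 and 0.68. Mthfd2, of mitochondrial one-carbon metabolism, was lower in all 4 cultures, by 0.50, 2.72, 1.57 and 0.39. The mean changes of these 4 genes did not pass the threshold; the adjusted p was 0.88 for Trib3, 0.184 for Chac1, 0.565 for Atf3 and 0.0821 for Mthfd2. Mthfd2 alone passed with the culture as a random block (0.0482), with normexp background correction (0.019) and without culture 4 (0.0301). Atf4 itself had changes of 0.30, 0.08, -0.34 and 0.34 (mean 0.10; a second probe gave a mean of -0.55), and the asparagine synthetase gene Asns by 0.32, 0.10, -0.84 and 0.15. The whole list of 26 tested genes had medians of 0.28, -0.31, -0.36 and 0.16 in cultures 1 to 4, against 0.02, 0.16, -0.13 and 0.05 for all genes. What set cultures 2 and 3 apart was not tested.

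**Figure D3:**
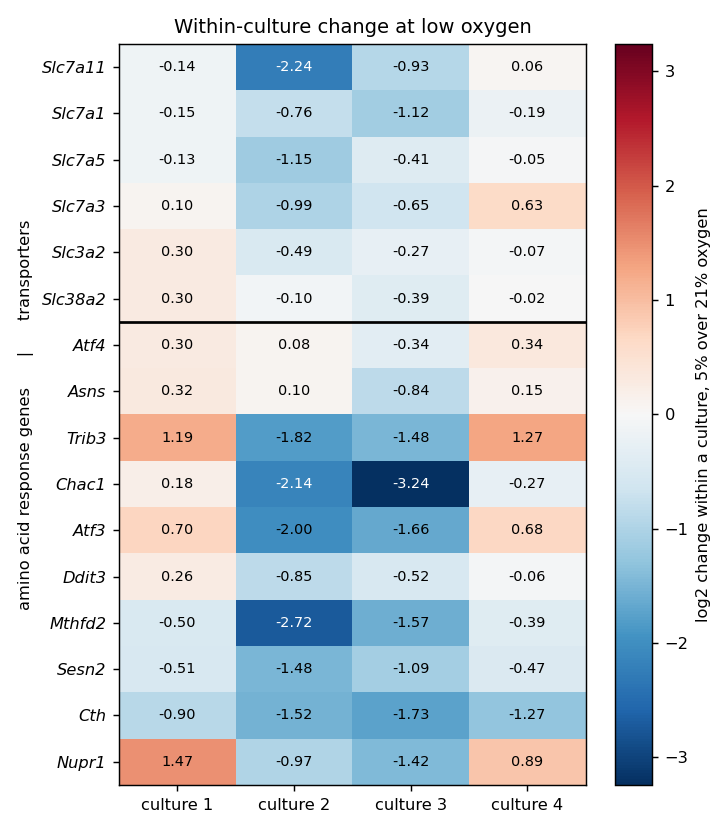
Change at 5% over 21% oxygen (log2, color and printed value) in each of the 4 cultures. The line parts 6 transporter genes (above) from 10 amino acid response genes (below), both picked and not whole lists. Of the 26 tested response genes, 4 were higher in every culture (Stc2, Vldlr, Cebpb and Eif2ak3, not drawn) and 5 were lower in every culture. Cultures 2 and 3 are mostly blue (lower at 5% oxygen), down to -3.24 for Chac1 in culture 3. Cultures 1 and 4 are mixed, from 1.47 for Nupr1 in culture 1 to -1.27 for Cth in culture 4. Of the response genes, Mthfd2, Sesn2 and Cth are lower in every culture.

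In the rest of the Slc38 family, Slc38a5 (SNAT5), a glutamine carrier that can run in both directions, was not well above background on any normoxia array and was so on 3 hypoxia arrays. It entered the test through the hypoxia group alone. Its levels were -6.71, -7.62, -6.91 and -7.49 at 21% oxygen and -6.61, -6.25, -6.25 and -6.42 at 5%. The group means differed by 1.74-fold (95% interval 1.24 to 2.44), with the normoxia mean made of signals not well above background. The change of 0.80 did not pass the threshold (limma adjusted p = 0.0724). It was called without culture 1, where it was only 0.10 (adjusted p = 0.0430), and with the culture as a random block (0.0341).

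Slc38a3 (SNAT3), known in brain from astrocytes that release glutamine, had levels of 1.55, 2.13, 2.03 and 0.47 at 21% oxygen and 1.81, 2.06, 2.17 and 1.35 at 5%. Only culture 4, the lowest at 21% oxygen, moved by more than 0.27, and the change of 0.30 did not pass (adjusted p = 0.407). Slc38a6 had changes of 0.65, 0.64 and 0.62 in cultures 1 to 3 and -0.07 in culture 4, with a mean of 0.46 (adjusted p = 0.175). The lysosomal members were Slc38a7, which exports glutamine, and Slc38a9, an arginine sensor that signals to the growth kinase complex mTORC1. Slc38a7 was lower in every culture, by 0.18, 1.18, 0.27 and 0.22, a change of -0.46 (adjusted p = 0.242). Slc38a9 varied little, between 0.06 and 0.44 on all arrays, and had a change of -0.06 (adjusted p = 0.878); its probes disagreed in sign, at -0.06, -0.14 and 0.20. Slc38a10 and Slc38a11 had changes of -0.14 and 0.12, and culture 3 was the lowest in both, at -0.81 and -0.73.

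In the Slc36 family, Slc36a1 (PAT1), which moves amino acids out of lysosomes, was lower in every culture, by 0.36, 0.02, 0.67 and 0.27. The change was -0.33 (adjusted p = 0.28), but a second probe gave 0.11, so its direction depends on the probe. Slc36a4 (PAT4) and Slc36a3 had changes of 0.17 and 0.14. In the Slc43 family, Slc43a1 (LAT3) and Slc43a2 (LAT4), facilitators for branched-chain amino acids, had changes of -0.08 and -0.29. Slc43a2 was lower in cultures 1 and 2, by 0.47 and 0.83, and near 0 in the others. Slc43a3, which is known to carry purine bases, was higher in 3 cultures and had a change of 0.43 (SE 0.17; adjusted p = 0.224).

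The 7 genes left out of the test were Slc7a9, Slc7a12, Slc7a13, Slc7a14, Slc7a15, Slc36a2 and Slc38a8. Slc7a14 was well above background on 2 hypoxia arrays and 0 normoxia arrays, Slc38a8 on 1 hypoxia array, and Slc36a2 on 1 array of each group. The remaining 4 were not well above background on any array. For 25 of the 29 tested genes the range between culture means exceeded the size of the oxygen change; over all genes this held for 24681 of 26874. The median range was 0.76 for the families and 0.68 for all genes. The smallest ranges were those of Slc38a9 (0.19) and Slc38a1 (0.20), and the widest that of Slc7a3.

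Other amino acid genes were read from lists chosen with earlier results of these data known. Beside the counts that follow, 4.22% of all genes tested rose and 1.29% fell. Of 19 other plasma membrane amino acid transporters 13 were tested, and 2 rose and 0 fell (0 lower at an unadjusted limma p under 0.05), with a median change of 0.07. Both are glutamate transporters: Slc1a2 (GLT-1) rose 1.89-fold (adjusted p = 0.0268) and Slc1a6 (EAAT4) 1.84-fold (adjusted p = 0.0164). In the unpaired fit the adjusted p was 0.663 and 0.439, with no filter on dim probes 0.102 and 0.072, and for Slc1a2 with the culture as a random block 0.0596. The call of Slc1a2 was lost without culture 1, 2 or 3 (0.0553, 0.07 and 0.0824) and that of Slc1a6 without culture 2 or 3 (0.0566 and 0.09).

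Of 14 tested carriers of lysosomes, synaptic vesicles and mitochondria, 1 fell and 0 rose, with a median of -0.28. At an unadjusted limma p under 0.05, 5 were lower and 0 higher, against 2072 and 3149 of 26874 over all genes. In every culture 7 of the 14 were lower, as were 13.0% of all genes. Slc66a1 (PQLC2), the lysosomal exporter of arginine and lysine, fell 1.53-fold, and its groups did not overlap, which 1.70% of all genes did with hypoxia below. Its levels were 1.60, 1.61, 1.78 and 1.59 at 21% oxygen and 0.97, 0.85, 1.19 and 1.12 at 5%. The paired fit gave an adjusted p of 0.0376 and the unpaired fit 0.219; it was between 0.0788 and 0.174 without any 1 culture and 0.119 with no filter on dim probes.

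Of 26 amino acid response genes 2 rose and 2 fell, with a median of -0.11. The secreted glycoprotein gene Stc2 rose 2.55-fold (adjusted p = 0.00372) and the lipoprotein receptor gene Vldlr 2.14-fold (adjusted p = 0.0077); both are also known targets of HIF. The cystathionine gamma-lyase gene Cth, which makes cysteine, fell 2.55-fold (adjusted p = 0.00463), lower in cultures 1 to 4 by 0.90, 1.52, 1.73 and 1.27. Sesn2, a leucine sensor upstream of mTORC1, fell 1.85-fold (adjusted p = 0.0398), a call lost without culture 1, 2 or 3 (0.0652, 0.105 and 0.182), under quantile normalization (0.0652) and with no filter on dim probes (0.135). None of the 4 passed in the unpaired fit, with an adjusted p of 0.14 for Stc2, 0.34 for Vldlr, 0.295 for Cth and 0.338 for Sesn2.

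None of the 20 cytosolic aminoacyl-tRNA synthetase genes, many of them ATF4 targets, passed the threshold. Their median was -0.18, with 16 of 20 below 0, against 12373 of 26874 over all genes. At an unadjusted limma p under 0.05, 3 of the 20 were lower, against 2072 over all genes. Yars had the smallest p, with a change of -0.61 (adjusted p = 0.0767), and Nars followed at -0.46 (adjusted p = 0.177). Of 37 genes of amino acid sensing by mTORC1, 1 rose and 1 fell, with a median of -0.03. The arginine sensor gene Castor1 rose 1.55-fold (adjusted p = 0.047; 0.0577 to 0.234 without any 1 culture; 0.698 unpaired), and the fallen gene was Sesn2. The call of Castor1 was also lost with the culture as a random block (0.0735), under quantile normalization (0.0529), median scaling (0.0586) and normexp (0.0768), in the authors' deposited value table (0.0514) and with no filter (0.142).

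Of 14 tested genes of cystine and glutathione metabolism 1 rose and 1 fell, with a median of 0.01. Ggt7, of the gamma-glutamyltransferase family, rose 2.10-fold (adjusted p = 0.00656; 0.0519 without culture 3; 0.122 unpaired), and the fallen gene was Cth. Of 16 tested enzymes of glutamine, arginine and branched-chain amino acid metabolism 3 rose and 0 fell, with a median of 0.04. At an unadjusted limma p under 0.05, 5 were higher and 1 lower. The mitochondrial arginase gene Arg2 rose 2.59-fold (adjusted p = 0.00428; unpaired 0.122) and the nitric oxide synthase gene Nos3 2.46-fold (adjusted p = 0.00339; unpaired 0.29); both products use arginine. The glutaminase gene Gls2 rose 1.80-fold (adjusted p = 0.0278; unpaired 0.512), a call lost without culture 1, 2 or 3 (0.13, 0.0888 and 0.0951) and with no filter on dim probes (0.104).

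**Figure D4:**
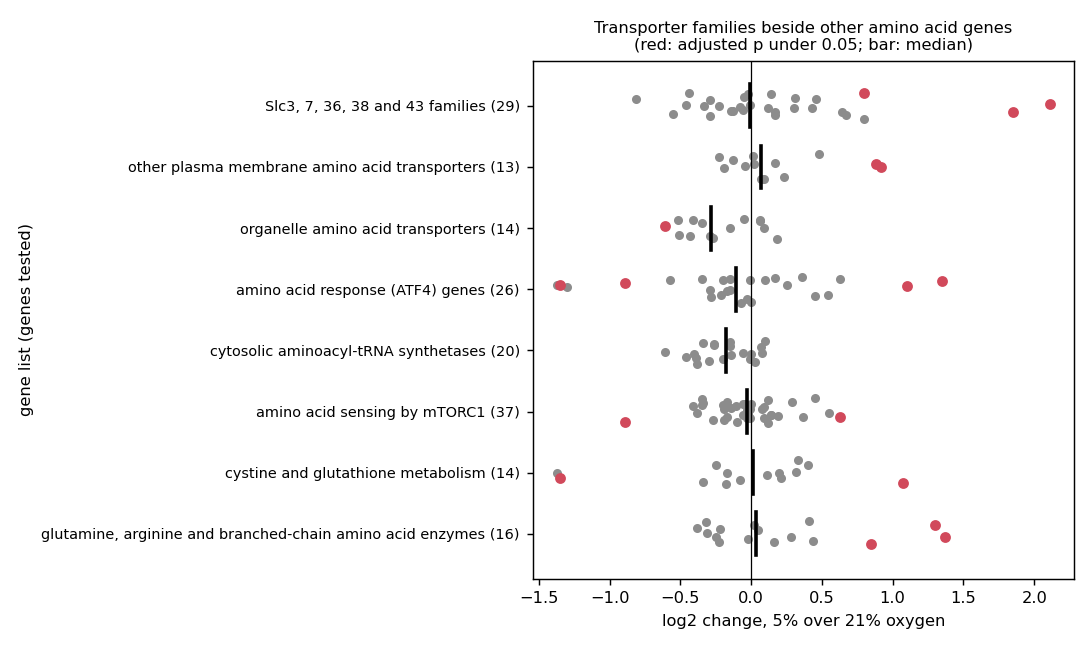
Change at 5% over 21% oxygen (log2, horizontal axis) of each tested gene in the transporter families and 7 other lists; bars mark the median and red points an adjusted p under 0.05. The families have 3 red points to the right and none to the left, the organelle carriers have the lowest median at -0.28, and the response genes have red points on both sides.

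The lists of other cell types' markers held genes that rose and genes that fell. Of all genes tested, 4.22% rose and 1.29% fell. A list's summed level is the log2 of the added linear levels on an array, given as the range over the 4 arrays of a group. Of 10 tested meningeal fibroblast markers 4 rose and 2 fell, with a summed level of 2.16 to 3.51 at 21% and 2.77 to 4.51 at 5% oxygen. The largest changes past the threshold were those of Ogn (-2.15), Col1a2 (1.83), Col3a1 (1.4) and Dcn (1.24). Of 10 endothelial and mural markers 3 rose and 4 fell, with 2.90 to 3.98 against 3.13 to 3.46, led by Cldn5 (-2.36), Pdgfrb (1.54), Tek (-1.38) and Slco1c1 (-1.31). Of 8 oligodendrocyte lineage markers 2 rose (Mbp, 1.56, and Cspg4, 0.90) and 7 were above 0, with 6.01 to 6.72 against 6.34 to 6.88. Sox10 at 1.77 and Pdgfra at 1.68 had larger changes that did not pass (adjusted p = 0.103 and 0.149; 0.0214 and 0.0367 with normexp). Of 7 astrocyte markers 1 rose (Slc1a2) and 6 were above 0, with 5.95 to 7.02 against 6.37 to 7.40. Of 9 neuron markers 1 rose (Gad2, 0.80), with 4.08 to 4.23 against 4.03 to 4.28. None of 9 microglia and leukocyte markers passed (1 higher at an unadjusted limma p under 0.05), with 2.36 to 3.09 against 2.67 to 3.14.

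None of the markers named here passed in the unpaired fit, where Cldn5 had the smallest adjusted p (0.152). Col1a2 and Pdgfrb kept their paired calls whichever culture was left out. Leaving out culture 3 lost those of Mbp (adjusted p = 0.103), Cldn5 (0.0519), Tek (0.0507), Slco1c1 (0.0567) and Col3a1 (0.0526). Leaving out culture 2 or 3 lost those of Dcn (0.0738 and 0.117) and Ogn (0.0585 and 0.0579). Gad2 was lost without culture 1, 2 or 3 (0.131, 0.07 and 0.118) and with the culture as a random block (0.108), and Cspg4 without culture 1, 3 or 4 (0.15, 0.182 and 0.106) and under quantile normalization (0.0619) or median scaling (0.0789). A second probe gave Mbp 0.21 (adjusted p = 0.645), and normexp gave Tek -0.26 (adjusted p = 0.467). The marker genes Slc17a6, Cdh5, Foxd1 and Cd68 were too dim to test. The part of these cell types in the rises of Slc38a4, Slc7a10, Slc7a4 and Slc1a2 was not tested.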

How the data were processed

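RNA of mouse neural stem cells was labelled with Cy3 and hybridised to 8 one-colour Agilent arrays on 1 slide, so no slide batch could be tested. Agilent Feature Extraction 10.7.3.1 made the deposited intensity of each spot, as the submitters' processing notes say. Per the file headers, background had been subtracted and arrays were not scaled to each other. The authors' deposited value table holds log2 values; set against the scanner values it equals log2 signal minus each array's 75th percentile and each probe's median, within 0.01 for 99.78% to 99.81% of probes. Its column medians ran from -0.12 to 0.25.

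Here, the array's 75th percentile of non-control spots was subtracted from the log2 processed signal. Spots with an outlier flag (non-uniform or population) were dropped, and a probe's spots were averaged. A probe was kept if well above background on at least 3 of 4 arrays of a group (37669 of 55681). Accessions were matched to RefSeq genes of GRCm38.p6, naming 27235 probes and leaving 28446 with their accession; a gene was read from its brightest probe on average. As the array design uses another build, the coordinates printed are those of RefSeq's promoter windows.

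Groups were compared with limma 3.58.1 (lmFit, eBayes; R 4.3.3). P-values were adjusted by Benjamini-Hochberg over 26874 genes and transcripts, and the threshold was 0.05. The culture was a block: the series' design text gives 4 experiments on different donors, the labels' protocols give parallel culture, and deviations of same-numbered arrays correlated at 0.76, 0.51, 0.38 and 0.66 (highest with another number -0.06, 0.31, 0.31 and -0.18). Alternatives covered the block, scaling, background correction, the filter, the gene summary, spot flags, moderation and leaving out arrays.

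The members and lists were chosen with earlier results of these data known. Named were all family genes, and of each other list up to 4 members past the threshold (where there were none, the 2 of smallest p), while oxygen check genes and cell type markers could be named as checks; exceptions are stated. Promoter windows are RefSeq's, matched by symbol for 28 family genes, 22 of them among the 29 tested.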

Additional observations from a re-analysis of the deposited data

Results flagged for a closer look

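In 58 sets of 4 arrays (29 genes, 2 groups), 4 single arrays stood far from the other 3 by Dixon's test at the 95% level, which chance alone gives in about 5% of sets. Slc38a4 was at -3.93 on the array of normoxia replicate 2, with the others from -4.72 to -4.65, and its rise stood without culture 2. Slc7a3 was at 1.59 on that of hypoxia replicate 2 (the others from -0.43 to -0.32). Slc7a2 was at -6.29 on that of hypoxia replicate 2 (the others from -5.94 to -5.91). Slc38a7 was at -0.61 on that of normoxia replicate 4 (the others from -0.29 to -0.25).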

How the results depend on the processing

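Without the replicate block, 1 transporter family gene rose in place of 3, and 24 genes passed in place of 1482 over all genes. With the block as a random effect 3 and 1529 passed, with Slc38a5 (adjusted p = 0.0341) in place of Slc7a4 (0.108). Slc38a5 entered the test through its hypoxia arrays alone, so the filter favours it in this direction. With no filter Slc7a4 was lost too (0.0999), and with normexp Slc7a8 joined the 3. No family gene fell under any alternative. Over all genes the count was 450 with no filter on dim probes and 2294 with trend and robust moderation. Leaving out 1 culture or 1 array gave 0 to 3 risen family genes and 0 to 1429 genes in all. The risen genes without culture 1 again included Slc38a5 (limma adjusted p = 0.043). The counts of 0 came from the unpaired limma fits without a single array, where 1548 to 2269 genes had an unadjusted p under 0.05; with 1 culture left out the paired counts were 712, 823, 389 and 1429. The families' median change ran from -0.05 to 0.10 in these fits.

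Quantile normalization turned Ldha to -0.04, Slc7a6os to 0.01, Atf4 to -0.14 and Nupr1 to 0.00, and normexp background correction turned Slc38a1 to 0.01. The second brightest probe gave Slc36a1 0.11 and Slc38a9 0.20 and Atf4 -0.55, and the mean over probes gave Slc38a9 0.00 and Atf4 -0.22. With a culture or an array left out, more signs turned, and the changes ran from -0.15 to 0.45 for Ldha, -0.01 to 0.29 for Slc36a3, -0.06 to 0.03 for Slc38a1, -0.39 to 0.09 for Slc38a10 and -0.07 to 0.41 for Slc38a11. They ran from -0.17 to 0.06 for Slc38a2, -0.05 to 0.50 for Slc38a3, -0.13 to 0.00 for Slc38a9, -0.30 to 0.02 for Slc3a2 and -0.23 to 0.10 for Slc43a1. They ran from -0.72 to 0.51 for Slc7a3, -0.08 to 0.05 for Slc7a6os and -0.02 to 0.36 for Slc7a7, and from -0.99 to 0.80 for Trib3, -0.07 to 0.24 for Atf4, -0.23 to 0.19 for Asns and -0.95 to 0.79 for Nupr1. No call of Slc38a4 or Slc7a10 was among those lost with a culture left out. The scalings moved the median of all genes to between -0.03 and 0.05. Causes were not tested.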
